A study of Mus musculus with 12 samples.

Results

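The AP-1 and small Maf genes *Fos*, *Fosl2*, *Jun*, *Junb*, *Jund*, *Atf3*, *Batf*, *Maff*, *Mafg* and *Mafk* were followed in peritoneal exudate cells (PECs) through 8 hr of LPS. The genes were chosen by symbol, and all 10 were among the 12850 genes listed and among the 11885 that were tested. RNA-seq libraries came from thioglycollate-elicited PECs of C57BL/6 mice, either wild type (WT) or homozygous for a serine-to-alanine knock-in of Regnase-1 (*Zc3h12a* S513A/S513A, here S513A). Regnase-1 is an RNase that degrades the mRNAs of inflammatory genes. Cells of both genotypes were harvested unstimulated (0 hr) or after 4 or 8 hr with LPS at 100 ng/ml, a bacterial cell wall component sensed by TLR4, and each of the 6 groups had 2 libraries, 12 in all. The knock-in changes a single residue of the protein, so gene counts do not check the genotype labels. Nothing in the labels says that the 2 libraries of a group came from separate animals, so p values measure the spread between these libraries, which may be technical.

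AP-1 is a dimer of basic leucine zipper (bZIP) proteins that binds short palindromic DNA sites and turns kinase signals into transcription. Fos proteins cannot pair with themselves and need a Jun partner, whereas Jun proteins can pair with each other, with Fos proteins or with ATF proteins. ATF3 and BATF lack a classical activation domain and often act as repressors or as partners of other factors. The small Maf proteins MAFF, MAFG and MAFK also lack an activation domain, and they pair with NRF2 (*Nfe2l2*) to activate antioxidant genes or with BACH proteins to repress them. In macrophages, TLR signals reach AP-1 through the MAP kinases, and *Fos* and *Jun* are known as immediate early genes whose transcripts rise and decay rapidly.

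The DNA just upstream of the start sites is shown for the members whose promoter window held one of the motifs searched. RefSeq promoter windows (GRCm38.p6, 250 bases before to 50 after each annotated start) were found for all 10 genes, with 12 windows in all because *Maff* has 3. The 100 bases before the start are printed 5′ to 3′ on the strand of the gene, with the 8-base motif TGACNTCA in capitals, a site of the kind bound by dimers of ATF or CREB with Jun proteins. They lie at chr4:95052223-95052322 (minus strand, *Jun*), chr15:79347420-79347519 (plus strand, the second *Maff* start) and chr15:79348302-79348401 (plus strand, the last *Maff* start).
*Jun*: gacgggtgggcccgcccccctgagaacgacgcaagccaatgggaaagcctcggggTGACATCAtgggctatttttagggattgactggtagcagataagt
*Maff*, second start: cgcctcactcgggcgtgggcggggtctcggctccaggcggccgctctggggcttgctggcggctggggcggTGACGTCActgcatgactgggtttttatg
*Maff*, last start: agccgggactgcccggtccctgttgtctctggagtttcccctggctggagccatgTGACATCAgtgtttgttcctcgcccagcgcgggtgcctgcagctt

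Counted back from the start site, the motif began at -45 in *Jun*, at -29 at the second *Maff* start and at -45 at the other. The copy at the second *Maff* start, TGACGTCA, is the full cAMP response element and reads the same on both strands. It was found in 1 of the 12 member windows and in 1.79% of all 32851 promoter windows. TGACNTCA, which includes it, was found in 3 of the 12, from 2 of 10 members, and in 8.83% of all windows. Both strands were searched for TGANTCA, the AP-1 site (7.81% of windows), for TGACTCAGC, a Maf and antioxidant element (0.454%), for the NF-kB-like GGGNNTTCC (5.82%) and GGGNNNTTCC (5.56%), and for the CArG box of serum response factor (1.63%). None of these was in a member's window, which says only that these letters are not within that window. The *Jund* window (chr8:70697489-70697788) ends before the start of *Jund* at 70698949 in the GRCm38 gene annotation. In the same annotation, the *Atf3* window (chr1:191183284-191183583) lies inside the gene, which starts at 191218039 on the minus strand. The *Fosl2* window (chr5:32136222-32136521) begins after the start of *Fosl2* at 32135801. For *Jund*, *Atf3* and *Fosl2*, the DNA just before these annotated starts was therefore not searched. *Jun* and *Maff*, which share TGACNTCA near the start, moved in opposite directions after LPS.

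The libraries held 9525979 to 12439960 reads on the listed genes, with a median of 11137241. The deposited unit is log2 CPM, reads scaled to the size of the library (CPM) on a log2 scale, with 0.5 read added to each count. At this depth the members rested on 77 to 7570 reads in a library, far above a floor of 3 reads, which corresponds to a log2 CPM between -2.04 and -1.30. All 7 macrophage markers examined were listed, with a summed level of 16655 to 27788 CPM per library. The defining neutrophil genes *Ly6g*, *Retnlg* and *Cxcr2* were not listed, and the 2 of 7 neutrophil markers that were, *S100a8* and *Camp*, summed to 20.3 to 108 CPM. B cell markers (4 of 5 listed) reached at most 8.87 CPM, T cell markers (1 of 5) 2.16 CPM, eosinophil and mast cell markers (3 of 6) 19.3 CPM and mesothelial markers (3 of 4) 2.47 CPM. Some of these sums moved with LPS. The eosinophil and mast cell markers held 17.3 to 19.3 CPM at 0 hr, 9.28 to 11.9 at 4 hr and 4.53 to 5.93 at 8 hr. The neutrophil markers in WT held 20.3 to 35.4 CPM, then 45.4 to 64.9, then 84.2 to 102, and in S513A 51.1 to 54.2, then 53.3 to 108, then 33.5 to 86.9. The part of these cells in the results was not tested. In a bulk sample, fewer cells of a type and less RNA per cell cannot be told apart.

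The first comparison asked how the AP-1 and small Maf transcripts changed after LPS, averaging the genotypes. No unstimulated cells were harvested at 4 or 8 hr. Effects of LPS and of time in culture therefore cannot be told apart in any comparison between times. At 4 hr, 8 members had risen and 2, *Fos* and *Jun*, had fallen. All 10 passed an adjusted p of 0.05 in limma (Benjamini-Hochberg over all genes tested), where 55.8% of all genes were called, 29.1% higher and 26.7% lower. At 8 hr, 7 members were above the level at 0 hr and *Fos* and *Jun* were still below it, with 9 of 10 called against 46.1% of all genes, 24.5% higher and 21.6% lower. From 4 to 8 hr, 8 of 10 were called, *Fos* and *Jun* upward and 6 members downward, all back toward the starting level. The estimates of *Fosl2* (-0.38) and *Mafg* (-0.06) pointed the same way and did not pass. Of all genes, 25.6% were called, 12.8% in each direction. The median log2 fold change of the members was 1.07 at 4 hr and 0.58 at 8 hr against 0 hr, and -0.46 from 4 to 8 hr. Over all genes tested, the medians were 0.02, -0.00 and -0.02. The 4 libraries at 4 hr did not overlap the 4 at 0 hr for any of the 10 members (49.1% of all genes), those at 8 hr did not overlap those at 0 hr for 9 (43.7%), and those at 8 hr did not overlap those at 4 hr for 6 (23.6%).

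**Figure D1:**
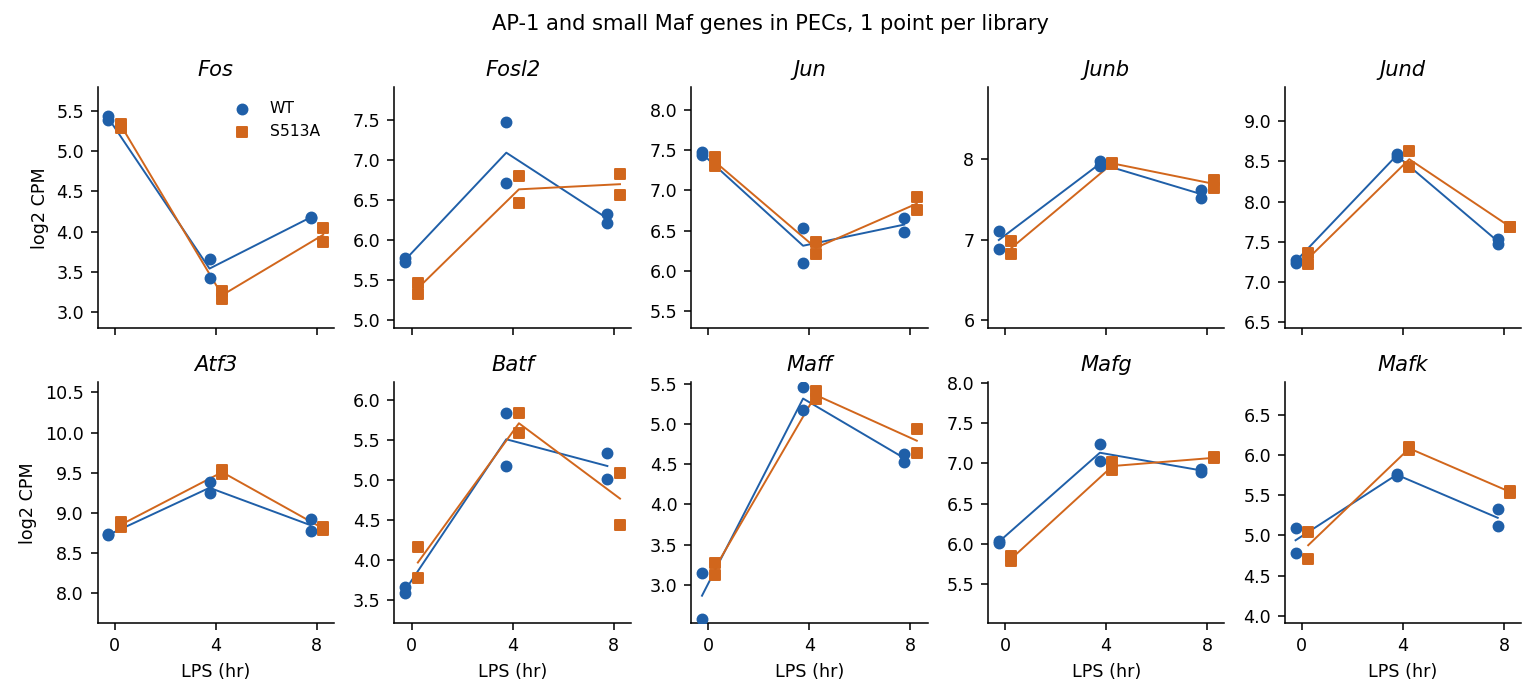
Log2 CPM of the 10 AP-1 and small Maf genes against hours of LPS, with 1 point per library (blue circles WT, orange squares S513A, shifted sideways for clarity), lines through the group means, and vertical axes of equal span. *Fos* and *Jun* dip at 4 hr, whereas the other 8 genes peak or level off there.

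*Fos*, the founding member of AP-1, had the largest fall. Its WT libraries stood at 5.44 and 5.38 log2 CPM before LPS, 3.42 and 3.66 by 4 hr, then 4.17 and 4.18 by 8 hr. In S513A libraries the levels were 5.29 and 5.35, then 3.15 and 3.26, then 4.05 and 3.87. Every library at 4 hr was thus below every library at 8 hr, and all of these were below 0 hr. The difference was -1.99 (SE 0.09, limma adjusted p = 1.37e-08) at 4 hr and -1.30 (adjusted p = 5.36e-07) at 8 hr against 0 hr, 3.98-fold and 2.46-fold lower. The partial return from 4 to 8 hr was 0.69 (adjusted p = 0.000305). No measurement was made between 0 and 4 hr, so an early rise would not be seen here.

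*Fosl2*, which encodes FRA2, a Fos protein without the strong activation domain of FOS, moved the other way. Its WT levels were 5.78 and 5.73 log2 CPM before LPS, then 6.70 and 7.47 by 4 hr, then 6.33 and 6.21 by 8 hr, and its S513A levels were 5.33 and 5.46, then 6.80 and 6.46, then 6.83 and 6.56. Replicate 2 of WT at 4 hr was the highest of all 12 libraries and stood apart from replicate 1. *Fosl2* was 1.28 (SE 0.15, adjusted p = 3.16e-05) above 0 hr at 4 hr and 0.91 (adjusted p = 0.000556) above it at 8 hr. The change from 4 to 8 hr, -0.38, did not pass (adjusted p = 0.0942). It was -0.57 (adjusted p = 0.00307) without WT 4 hr replicate 1, which leaves the high replicate 2 alone in its group, and -0.19 (adjusted p = 0.208) without replicate 2.

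Among the Jun genes, *Jun*, which encodes the strongest activator of the family, fell while *Junb* and *Jund* rose. *Jun* stood at 7.47 and 7.44 log2 CPM in WT and 7.41 and 7.31 in S513A libraries at 0 hr. At 4 hr it was at 6.10 and 6.53 in WT and 6.36 and 6.21 in S513A, and at 8 hr at 6.49 and 6.66 in WT and 6.92 and 6.75 in S513A. All stimulated libraries were below all unstimulated ones, by 1.11 on average at 4 hr (SE 0.10, limma adjusted p = 4.29e-06) and by 0.70 at 8 hr (adjusted p = 0.000195). Its return from 4 to 8 hr, 0.41, passed (adjusted p = 0.0139), although the libraries of the 2 times overlapped, and did not pass without WT 8 hr replicate 2 or S513A 4 hr replicate 2 (adjusted p up to 0.0626).

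*Jund*, a Jun gene with high expression in many resting cells, fell back the most after 4 hr. Its levels at 0 hr were 7.27 and 7.24 log2 CPM in WT and 7.22 and 7.36 in S513A libraries, at 4 hr 8.56, 8.59, 8.63 and 8.43 in the same order, and at 8 hr 7.48, 7.54, 7.68 and 7.69. It was thus 1.28 (SE 0.07, adjusted p = 9.18e-08) above 0 hr at 4 hr, lost 0.96 of this by 8 hr (adjusted p = 1.48e-05), and kept a difference of 0.32 (adjusted p = 0.00386). That last difference was 0.06 (adjusted p = 0.586) after quantile normalization. *Junb*, a weaker activator that can oppose JUN, ranged from 6.82 to 7.11 at 0 hr, 7.91 to 7.98 at 4 hr and 7.52 to 7.75 at 8 hr. The 3 ranges did not touch, and *Junb* was 1.00 (SE 0.08, adjusted p = 1.17e-06) and 0.69 (adjusted p = 3.25e-05) above 0 hr at 4 and 8 hr.

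*Atf3*, which encodes a stress-induced repressor of several TLR target genes, had the highest level per exon length and the smallest rise. WT libraries held 8.72 and 8.73 log2 CPM before LPS, 9.38 and 9.25 by 4 hr, then 8.77 and 8.92 by 8 hr. S513A libraries held 8.88 and 8.83, then 9.53 and 9.48, then 8.78 and 8.83. The transcript was 0.62 (SE 0.07, limma adjusted p = 2.80e-05) higher at 4 hr than at 0 hr and had lost 0.58 (adjusted p = 0.000242) by 8 hr. At 8 hr it differed from 0 hr by 0.04 (95% confidence interval -0.12 to 0.19, adjusted p = 0.72). This depended on scaling, since quantile normalization gave 0.19 (adjusted p = 0.0433) at 4 hr and -0.26 (adjusted p = 0.0111) at 8 hr. *Batf*, the gene of an AP-1 factor that works with IRF proteins, was low at 0 hr, between 3.59 and 4.16, rose to between 5.17 and 5.84 at 4 hr, and stood between 4.44 and 5.34 at 8 hr. Its differences from 0 hr were 1.81 (SE 0.18, adjusted p = 9.09e-06) and 1.17 (adjusted p = 0.000333). The libraries at 4 and 8 hr overlapped for *Batf*, and its change between them, -0.64, passed (adjusted p = 0.0259) but was lost when any of 4 single libraries was left out (adjusted p up to 0.104).

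The small Maf genes all rose, with different time courses. *Maff* had the lowest level at 0 hr, 3.15 and 2.58 log2 CPM in WT and 3.13 and 3.28 in S513A libraries, and the largest rise, to 5.46 and 5.17 in WT and 5.41 and 5.31 in S513A at 4 hr. It was 2.31 (SE 0.13, limma adjusted p = 1.26e-07) above 0 hr at 4 hr, 4.95-fold, and 1.65 (adjusted p = 2.29e-06) above it at 8 hr, when its libraries held 4.53 to 4.94. *Mafg* ranged from 5.78 to 6.04 at 0 hr and stayed on a plateau from 6.92 to 7.24 at 4 hr and 6.89 to 7.08 at 8 hr, 1.13 (SE 0.07, adjusted p = 2.32e-07) and 1.07 (adjusted p = 4.55e-07) above 0 hr. Its change from 4 to 8 hr was -0.06 (95% confidence interval -0.22 to 0.10, adjusted p = 0.592). *Mafk* rose from between 4.71 and 5.10 to between 5.75 and 6.10, a difference of 1.01 (SE 0.10, adjusted p = 8.95e-06), and fell back to between 5.11 and 5.55, 0.47 above 0 hr (adjusted p = 0.003).

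The response to LPS was also tested within each genotype, in the same model. In WT libraries, limma called 10 of 10 members at 4 hr against 0 hr (41.3% of all genes), and in S513A libraries 10 of 10 (43.2%). *Atf3* at 4 hr in WT, a rise of 0.59, was 0.09 (adjusted p = 0.503) after quantile normalization, which left 9 members called. The 8 hr libraries gave 6 members in WT (34.3% of genes), where *Fosl2*, *Jund*, *Atf3* and *Mafk* did not pass, and 9 in S513A (39.9%), where *Atf3* did not. In WT the alternatives gave 6 to 8 members, since *Fosl2* (adjusted p = 0.00107) and *Jund* (adjusted p = 0.0216) passed when only the libraries compared were fitted. *Fosl2* also passed there without either WT 4 hr library (adjusted p up to 0.0112), and *Junb* was lost after quantile normalization (adjusted p = 0.0838). Between 4 and 8 hr, 7 members were called in WT (14.2%) and 6 in S513A (18.3%). *Fosl2*, *Junb* and *Maff* passed there in WT only, and *Jun* and *Batf* in S513A only, which does not show that the genotypes differ. These calls were near the threshold. With each of the 12 libraries left out in turn, the WT call of *Junb* (adjusted p = 0.0453) was kept in 1 fit (adjusted p up to 0.233), and those of *Fosl2* and *Maff* in 9. In S513A the call of *Jun* was kept in 10 of these fits and that of *Batf* in 9. Counts of members between these times fell in some of these fits, most without WT 8 hr replicate 1. In the fits with the fewest members, fewer of all genes were called as well.

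**Figure D2:**
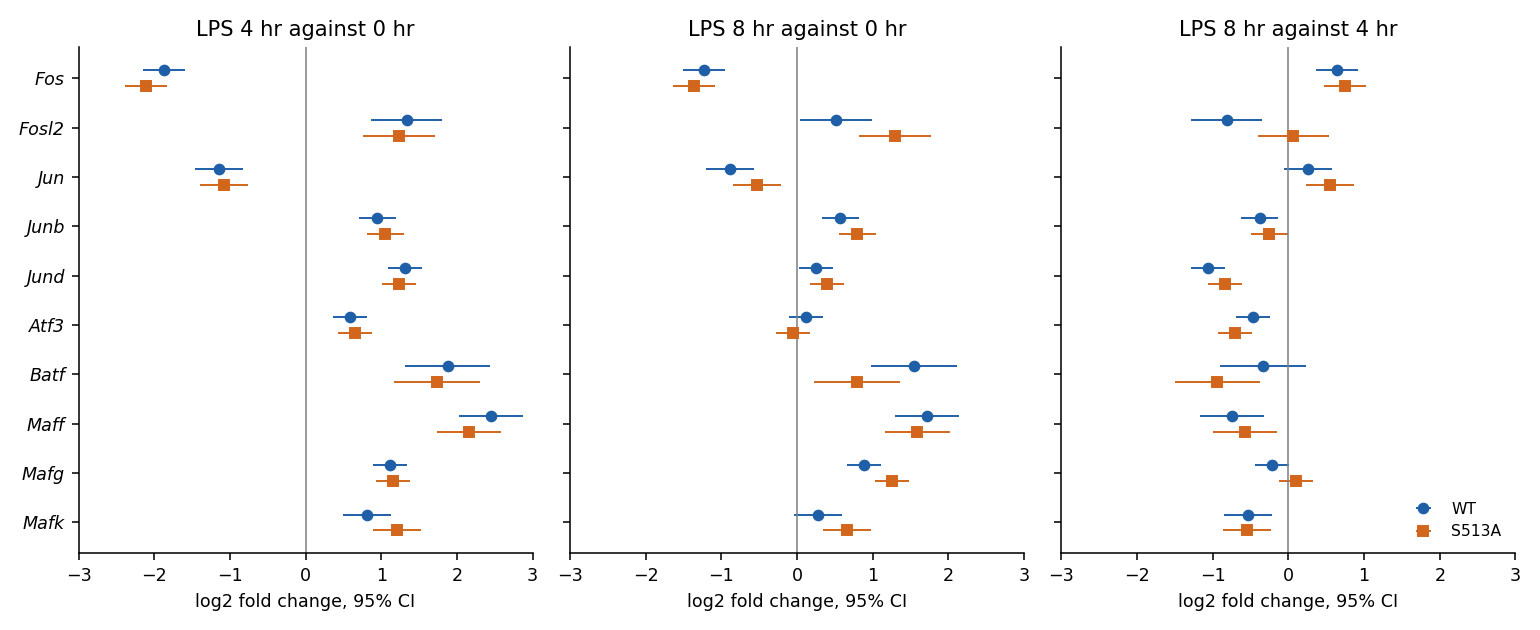
Log2 fold change between times for each gene in WT (blue circles) and S513A (orange squares) PECs, with 95% confidence intervals from the limma model, 2 libraries per group. In both genotypes *Fos* and *Jun* lie to the left of 0 and the other 8 genes to the right at 4 hr.

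Levels were compared between genes per kilobase of exon, as CPM per kb averaged over the 4 libraries at a time. Exon lengths came from the GENCODE M21 annotation, and the annotation behind the deposited counts is not given, so the order of genes rests on these lengths. For *Jund*, the RefSeq start lies before the start in GENCODE, so the length that was counted is uncertain. At 0 hr the order was *Atf3* at 206, *Jund* at 92.8, *Junb* at 53.8, *Jun* at 53.4, *Fos* at 17.5, *Mafg* at 10.8, *Batf* at 10.0, *Mafk* at 7.75, *Fosl2* at 4.97 and *Maff* at 3.21 CPM per kb. Libraries overlapped between the neighbours *Junb* and *Jun*, *Mafg* and *Batf*, and *Batf* and *Mafk*, and not between the other neighbours. *Atf3*, *Jund* and *Junb* kept the first 3 places throughout, at 317, 225 and 107 CPM per kb at 4 hr and 211, 116 and 86.4 at 8 hr. *Fos* was the fifth at 0 hr and the lowest at both later times, with 4.45 CPM per kb at 4 hr and 7.16 at 8 hr, when its libraries overlapped those of *Fosl2* at 9.36. *Batf* reached 35.2 CPM per kb at 4 hr and overlapped *Jun* at 24.8, which in turn overlapped *Mafg* at 23.7.

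Opposite movements changed the shares of *Fos* and *Fosl2*, and of the 3 Jun genes, in their sums. The size of each share rests on the same exon lengths, with the same limit for *Jund*. *Fos* made up 78.0% ± 1.83 (SD, n = 4) of the summed *Fos* and *Fosl2* level per kb at 0 hr, 27.0% ± 3.91 at 4 hr and 43.7% ± 6.40 at 8 hr. *Fosl1*, the only other Fos gene listed, was not in this sum. It held 1 to 18 reads in a library, and with it the share of *Fos* was 77.2%, 25.7% and 42.4%. *Jun* made up 26.7% ± 1.56 of the 3 Jun genes at 0 hr, 6.94% ± 0.714 at 4 hr and 14.0% ± 0.966 at 8 hr. The share of *Jund* went from 46.4% ± 1.69 to 63.0% ± 1.35 and back to 49.3% ± 0.506, and that of *Junb* from 26.9% ± 1.41 to 30.1% ± 1.18 and 36.7% ± 1.13. Among the small Maf genes *Mafg* had the largest share at each time, 49.6%, 43.1% and 52.4%, and the share of *Maff* was 14.8%, 28.5% and 22.9%. *Mafk* accounted for 35.5%, 28.4% and 24.7%.

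**Figure D3:**
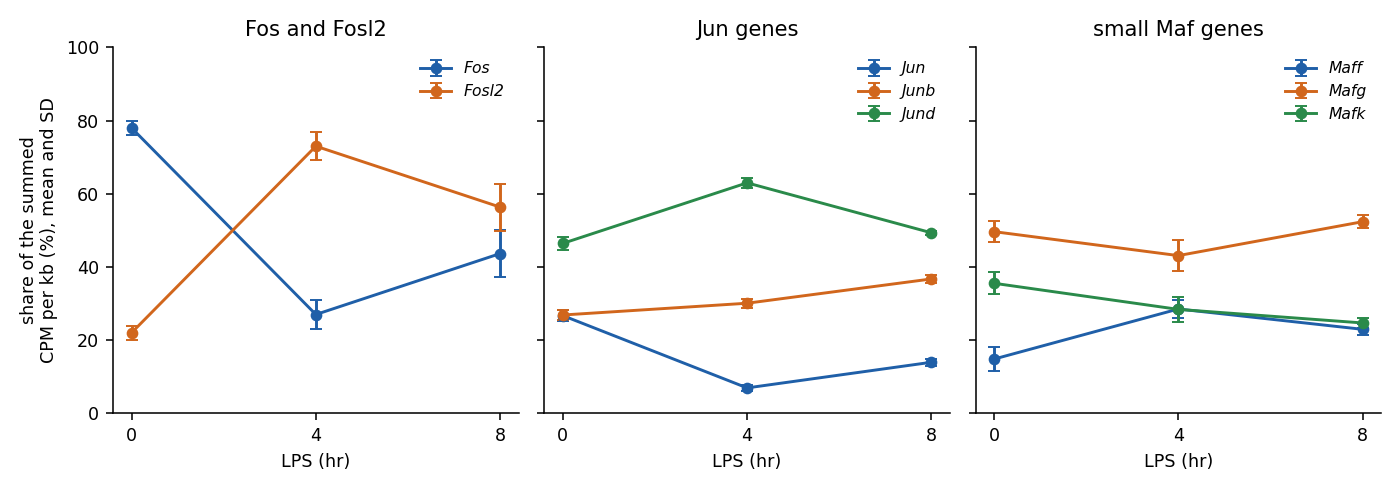
Share of each gene in the summed CPM per kb of the genes shown in its panel, against hours of LPS, as mean and SD over the 4 libraries at each time (both genotypes together). *Fos* falls from 78.0% to 27.0% of the *Fos* and *Fosl2* level by 4 hr, and *Jun* from 26.7% to 6.94% of the Jun level.

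A ratio of 2 genes in 1 library does not depend on scaling between libraries. The log2 ratio of *Fosl2* over *Fos* reads was 0.34 in both WT libraries and 0.04 and 0.12 in the S513A libraries at 0 hr. It was 3.29 and 3.81 in WT and 3.64 and 3.20 in S513A at 4 hr, and 2.16 and 2.02 in WT and 2.78 and 2.69 in S513A at 8 hr. The 3 times did not overlap. The ratio of *Jund* over *Jun* averaged -0.14 ± 0.126 (SD, n = 4) at 0 hr, 2.25 ± 0.167 at 4 hr and 0.89 ± 0.0979 at 8 hr. That of *Junb* over *Jun* averaged -0.46, 1.65 and 0.93. In a family of 18 two-sided exact permutation tests of 6 such ratios between times, 17 gave p = 0.0286, the smallest that 4 libraries against 4 allow (Benjamini-Hochberg adjusted p = 0.0303). The other test was *Mafk* over *Mafg* at 4 hr against 0 hr, with a difference of -0.12 (exact permutation p = 0.457). The ratios were chosen after the data were seen, and those of the Jun genes depend on one another. At 4 and 8 hr against 0 hr, *Fosl2*, *Junb* and *Jund* lay above and *Fos* and *Jun* below without overlap. The ratios of *Fosl2* over *Fos*, *Junb* over *Jun* and *Jund* over *Jun* therefore had to separate there. Those tests add nothing to the results of the single genes.

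The comparison between genotypes asked whether S513A changed these transcripts. No member differed at 0, 4 or 8 hr or over the 3 times together in limma after adjustment (0 of 10 in each), and nearly no gene did, with 0.0337%, 0.0168%, 0.0337% and 0.0673% of all genes called. At an unadjusted p under 0.05 there were 0, 2, 1 and 2 members, beside 949, 833, 1487 and 798 of all genes tested. S513A libraries lay wholly above or below the WT libraries for 6 members at 0 hr (57.5% of all genes), 4 at 4 hr (28.2%) and 8 at 8 hr (53.6%), 7 of these 8 above. The median SE of a member's difference at a single time was 0.13. Voom weights in limma also called 0 members. At 0 hr the 2 listed neutrophil markers summed to 20.3 to 35.4 CPM in WT and 51.1 to 54.2 CPM in S513A libraries, and the part of neutrophils in these differences was not tested.

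*Fos* and *Mafk* had the lowest unadjusted p values. For *Fos* the log2 difference of S513A from WT PECs at 4 hr was -0.33 (limma unadjusted p = 0.0237, adjusted p = 0.622), with both S513A libraries below both WT libraries. Over the 3 times its difference was -0.21 (unadjusted p = 0.0139, adjusted p = 0.608). *Mafk* stood at 5.75 and 5.77 log2 CPM in WT and 6.07 and 6.10 in S513A libraries at 4 hr, and at 5.11 and 5.33 against 5.53 and 5.55 at 8 hr. Its differences were 0.33 (adjusted p = 0.622) at 4 hr and 0.32 (adjusted p = 0.396) at 8 hr, and at 0 hr, where the genotypes overlapped, -0.06. The other members had differences between -0.46 and 0.43 at the single times, both of these *Fosl2*, at 4 and 8 hr. The first rested on the WT 4 hr libraries, being -0.84 without replicate 1 and -0.07 without replicate 2.

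**Figure D4:**
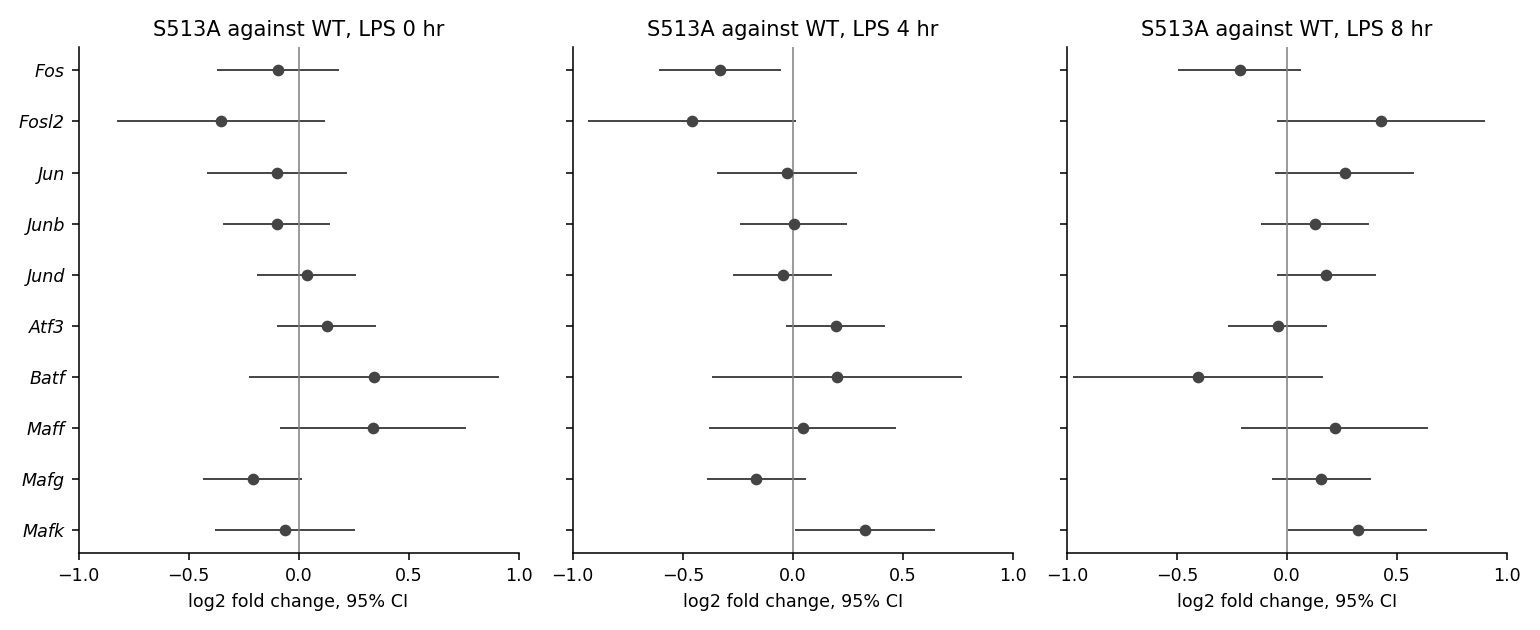
Log2 fold change of S513A against WT PECs for each gene at 0, 4 and 8 hr of LPS, with 95% confidence intervals from limma, 2 libraries per group. Most intervals cross 0, and no difference passed an adjusted p of 0.05.

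The difference between the genotypes in the response to LPS was tested as an interaction. It was called for 0 of 10 members at 4 hr, at 8 hr and between 8 and 4 hr, and for 0% of all genes in each. At an unadjusted p under 0.05, the counts of members were 0, 2 and 2, namely *Fosl2* and *Mafg* both times, beside 144, 2405 and 2243 of all genes. *Fosl2* had risen 0.52 by 8 hr in WT and 1.30 in S513A PECs, an interaction of 0.78 (95% confidence interval 0.11 to 1.45, limma adjusted p = 0.212). For *Mafg* the rise was 0.89 in WT and 1.25 in S513A, an interaction of 0.36 (0.05 to 0.68, adjusted p = 0.217).

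Other bZIP genes related to the members were counted for context. Of 24 genes listed for this purpose, 22 were tested. At 4 hr 9 were higher and 8 lower than at 0 hr (29.1% and 26.7% of all genes), with a median log2 fold change of 0.11. At 8 hr 8 were higher and 9 lower (24.5% and 21.6%), with a median of -0.03. From 4 to 8 hr 3 rose and 5 fell (12.8% of all genes in each direction). *Batf2*, an interferon-induced relative of *Batf*, was 3.26 (SE 0.16, limma adjusted p = 3.50e-08) higher after 4 hr of LPS and 3.58 higher after 8 hr. *Batf3*, a factor of dendritic cell development, was down, with a difference of -2.78 (adjusted p = 2.76e-05) at 4 hr. *Bach2*, whose protein is a repressing partner of the small Mafs, differed by -2.42 (adjusted p = 8.84e-05) at 4 hr and regained 1.38. At 8 hr *Nfe2* differed from 0 hr by -1.51 (adjusted p = 0.000785), and from 4 to 8 hr *Maf* by -0.59.

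**Figure D5:**
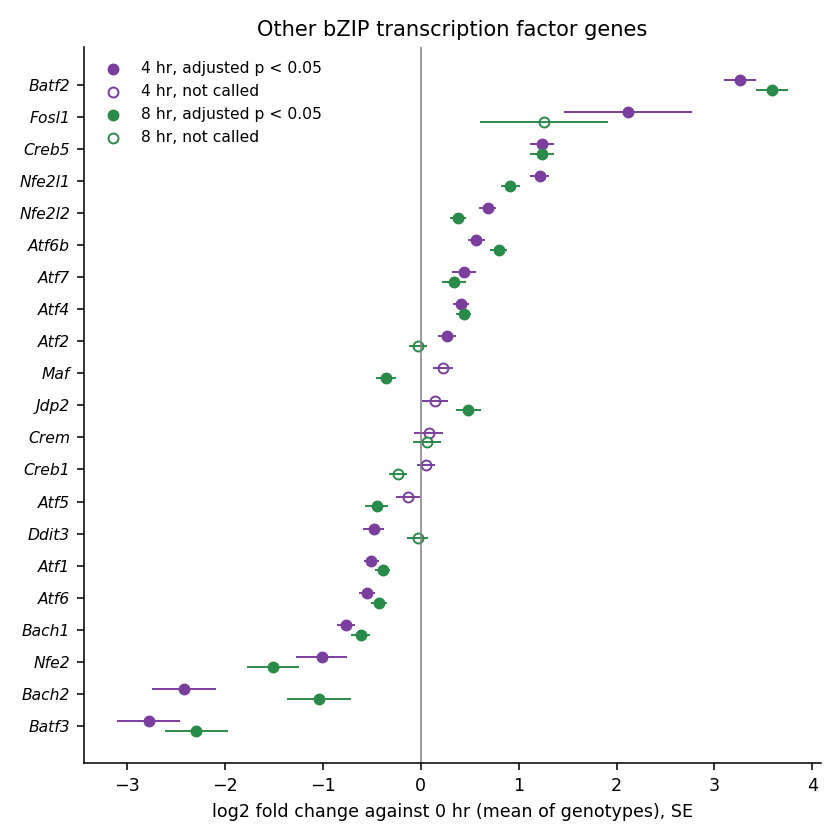
Log2 fold change against 0 hr of other bZIP genes at 4 hr (purple) and 8 hr (green), averaged over the genotypes, with SE bars and filled points where the limma adjusted p was under 0.05. *Batf2* lies highest at both times, and *Batf3* and *Bach2* lie far to the left of 0 at 4 hr.

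Genes of the MAP kinase cascade, which signals to AP-1, were counted in 1 list with serum response genes such as *Srf* and *Elk1*. Genes of this list moved in both directions. Of 30 listed, 29 were tested, with 14 higher and 8 lower at 4 hr (29.1% and 26.7% of all genes). There were 11 higher and 6 lower at 8 hr (24.5% and 21.6%), and 5 rising and 12 falling from 4 to 8 hr (12.8% in each direction). The medians, 0.08, 0.05 and -0.03, were close to those of all genes. *Mapkapk2*, which encodes the p38 substrate MK2, was 2.68 (SE 0.08, limma adjusted p = 5.25e-10) higher at 4 hr, and *Mapk11* (p38 beta) and *Map3k5* (ASK1) were 1.98 and 1.90 higher. *Map2k6*, a kinase of p38, differed by -3.69 (SE 0.78, adjusted p = 0.00213). From 4 to 8 hr *Map3k8* (TPL2) changed by -0.86 and *Map2k3* by 0.76.

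Textbook AP-1 target genes, most of which are also NF-kB targets, were mostly higher after LPS. Of 15 tested, 10 were higher and 2 lower at 4 hr (29.1% and 26.7% of all genes), and 10 and 4 at 8 hr (24.5% and 21.6%). From 4 to 8 hr 3 rose and 9 fell (12.8% in each direction). The median log2 fold changes were 1.85, 1.59 and -0.50. The cytokine genes *Il1b* and *Tnf* rose by 8.31 and 6.12 at 4 hr, *Ptgs2* (COX-2) by 7.44 and the chemokine gene *Ccl2* by 3.47 (limma adjusted p from 1.90e-11 to 1.92e-07).

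Antioxidant genes, the class that NRF2 and small Maf dimers activate, were higher after LPS or did not pass. Of 12 tested, 6 were higher and 0 lower at 4 hr (29.1% of all genes higher), 11 and 0 at 8 hr (24.5%), and from 4 to 8 hr 5 rose, 1 fell and 6 did not pass (12.8% in each direction), with medians of 0.49, 0.93 and 0.21. *Slc7a11*, the cystine transporter gene, was 3.18 (SE 0.10, limma adjusted p = 8.28e-10) higher at 4 hr and *Txnrd1* (thioredoxin reductase) 1.62 higher. *Hmox1*, which encodes heme oxygenase 1, was 1.62 higher at 8 hr and gained 1.14 between 4 and 8 hr (adjusted p = 1.57e-05), and *Gclm* of glutathione synthesis gained 0.95. Between the genotypes, limma called 0 genes of these 4 lists at 0, 4 or 8 hr. Before adjustment, 5, 9 and 9 of their genes were below 0.05, beside 949, 833 and 1487 of all genes tested.

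As a description, the gene whose log2 CPM followed each member most closely over the 12 libraries was found. The libraries form 3 times and 2 genotypes, so that such a correlation mostly reflects the time course. The closest gene was *Peli2* for *Fos* (Pearson r = 0.994), *Tmem170b* for *Fosl2* (0.994), *Slc29a3* for *Jun* (0.992), *Abtb2* for *Junb* (0.993) and *Slc44a1* for *Jund* (0.994). For *Atf3* it was *Map2k4* (0.983), for *Batf* *Ube2f* (0.990), for *Maff* *Cxcl10* (0.993), for *Mafg* *Rnf213* (0.996) and for *Mafk* *Csrnp1* (0.984). Within the members, *Fos* and *Jun* followed each other with r = 0.95.

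In the GRCm38 annotation, *Fos* (85473890 to 85477273) and *Batf* (85686669 to 85709087) both lie on chromosome 12, and *Jund* (70698949 to 70700616) and *Junb* (84974484 to 84978718) both lie on chromosome 8. *Jun* (chromosome 4, 95049034 to 95052222) and *Jund* consist of 1 exon each. *Atf3* lies at 191170296 to 191218039 on chromosome 1, *Maff* at 79346621 to 79359076 on chromosome 15 and *Mafg* at 120625117 to 120633600 on chromosome 11. *Fosl2* (32135801 to 32157842) and *Mafk* (139791513 to 139802653) are on chromosome 5. Reads were mapped without strand, so reads from overlapping genes cannot be told apart. An antisense gene, Gm11175, shares 52.6% of the exon length of *Jund*, which limits what its level means. The overlaps were smaller for *Jun* (Junos, 7.28%), *Junb* (*Prdx2*, 7.52%), *Mafk* (*Tmem184a*, 4.33%) and *Mafg* (*Sirt7*, 2.21%).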

How the data were processed

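The authors mapped paired reads, unstranded, on mm10 with HISAT2, counted them on genes with featureCounts 1.6.3, and deposited log2 CPM: the log2 of reads plus 0.5 over an effective library size. The normalization program and the gene annotation are not given in the sources used here. Whole reads were recovered from these values, with 100% of values within 0.01 read of a whole number and a largest departure of 0.00103 read. Of the listed genes, 112 had no symbol. Floors on reads cover counting error only.

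The 11885 of 12850 genes that reached 1 CPM in 2 or more libraries were tested on the deposited log2 CPM with limma 3.58.1 in R 4.3.3. The model had a mean for each of the 6 groups over all 12 libraries (6 residual degrees of freedom) and a prior following the mean level. It gave each gene 1 spread for all groups, although replicates differed unequally. Over 8353 genes, the SD of the difference between replicates was highest in WT at 4 hr, 0.40, and lowest in S513A at 0 hr, 0.16. Tests were two-sided, with Benjamini-Hochberg adjustment over all genes tested in each contrast and a threshold of 0.05. The interaction from 4 to 8 hr, the family ratios (exact permutation tests, scipy 1.17.1) the *Fos* share with *Fosl1* and 2 motifs, TGACNTCA and GGGNNNTTCC, were added after the data were seen. The model was tested on simulated data.

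The members, gene lists and tests were chosen with earlier results of these data known. All members were named. Of other lists, up to 4 called genes per LPS contrast with the largest change and no overlap between times were named, except 1 that is not reported here, and for each member the gene with the highest Pearson r. Levels per kb used merged exons of the GENCODE M21 annotation. Tables and plots were made with Python 3.11.15, pandas 2.3.3 and matplotlib 3.10.9. Alternatives were no filter, a filter at a mean of 5 CPM, 1 CPM more as pseudocount, median-ratio scaling, quantile normalization, voom weights, a prior without a trend, only the libraries compared, a replicate block and each library left out.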

Additional observations from a re-analysis of the deposited data

Results flagged for a closer look

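The estimated changes of *Mafg* between 4 and 8 hr had opposite signs in the 2 genotypes. It changed by 0.10 (log2) in S513A PECs, with libraries at 7.01 and 6.92 log2 CPM at 4 hr and 7.06 and 7.08 at 8 hr. In WT it changed by -0.22, from 7.03 and 7.24 to 6.89 and 6.93. The libraries of the 2 times did not overlap in either genotype, but only 2 libraries were set against 2. Neither change of *Mafg* passed in limma (adjusted p = 0.495 and 0.179), and the difference between them, 0.32, did not pass either (adjusted p = 0.263). The estimates of *Fosl2* also had opposite signs, -0.82 in WT and 0.06 in S513A, with a difference of 0.88 that did not pass (limma adjusted p = 0.258).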

How the results depend on the processing

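Counts of members called with the genotypes averaged were 10 and 9 at 4 and 8 hr against 0 hr whichever library was left out, and 6 to 8 from 4 to 8 hr. Quantile normalization turned *Atf3* at 8 hr against 0 hr to a called fall, -0.26 averaged over the genotypes (adjusted p = 0.0111) and -0.31 in WT (adjusted p = 0.0319), and ended the call of *Jund* there. It also ended the calls of *Atf3* at 4 hr in WT (0.09, adjusted p = 0.503) and of *Junb* from 4 to 8 hr averaged over the genotypes (-0.21, adjusted p = 0.0971). From 4 to 8 hr, the call of *Batf* was lost without WT 4 hr replicate 1, WT 8 hr replicate 1, S513A 8 hr replicate 1 or S513A 4 hr replicate 2 (adjusted p up to 0.104), with a prior without a trend (0.0509) and with only the libraries compared (0.056). The call of *Jun* was lost without WT 8 hr replicate 2 or S513A 4 hr replicate 2 (up to 0.0626), that of *Junb* without WT 8 hr replicate 1 (0.0615), and *Fosl2* was called without WT 4 hr replicate 1 (0.00307). Within 1 genotype the counts from 4 to 8 hr were less stable. In WT, 3 members were called with a prior without a trend, 2 with only the libraries compared, and 1 to 7 with a library left out (1 without WT 8 hr replicate 1, 2 without replicate 2). In S513A, 2 were called with only the libraries compared and 3 to 7 with a library left out (3 without S513A 8 hr replicate 1 or S513A 4 hr replicate 2). At 8 hr against 0 hr in S513A the range was 5 to 9, with 5 without S513A 0 hr replicate 1. The interaction from 4 to 8 hr was called for 0 to 2 members. Without WT 4 hr replicate 1, whose partner is then assumed to vary like the other groups, *Fosl2* and *Mafg* passed, as did 20.8% of all genes. The causes were not tested.

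The labels do not say that replicate numbers pair the libraries. The differences between replicates 2 and 1 correlated over 0.1 in 6 of 15 pairs of groups, from 0.76 between S513A at 4 and 8 hr to -0.75 between WT at 4 hr and S513A at 8 hr, so whether the numbers pair libraries is not settled. With a replicate block, 10, 9 and 8 members were called with the genotypes averaged, 6 from 4 to 8 hr in WT and in S513A, and 0 between genotypes. With crossed numbers, an alternative chosen after seeing the data, the first counts were 10, 9 and 9. The shares of all genes called with these blocks are not given here. No member was called between genotypes under any of these alternatives.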
